A study of Mus musculus with 6 samples.

Results

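The genes described here buffer the ATP of skeletal muscle: the 4 creatine kinases (Ckm, Ckb, Ckmt1 and Ckmt2), adenylate kinase 1 (Ak1), the AMP deaminases Ampd1 and Ampd3, and the genes that make and import creatine (Gatm, Gamt and Slc6a8). The 10 members were chosen by symbol, and all 10 of them were found once each among the 23367 gene entries and were among the 16882 genes that passed the filter on low counts. Poly(A) RNA of gastrocnemius, a calf muscle of mostly fast fibres, was sequenced from wild type FVB mice in 6 libraries over 5 stages. These were embryonic day 18.5 (E18.5, males and females pooled), postnatal day 2 (PN2, pooled males), PN14 (replicates 1 and 2, each a single male), PN28 (a single male) and adult (a single male of 22 weeks). The column names of the deposited table put each library on a lane of its own, so lane and stage cannot be told apart, and outside PN14 neither can a stage and its library.

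Creatine kinases move a phosphate group between ATP and creatine, so that phosphocreatine can restore ATP within moments of a contraction. Cytosolic isoforms work near the sites of ATP use and mitochondrial isoforms at the sites of ATP production. Adenylate kinase turns a pair of ADP molecules into ATP and AMP, and AMP deaminase removes that AMP as IMP, the entry to the purine nucleotide cycle. Creatine is made from arginine and glycine by GATM and then GAMT, for which kidney and liver are best known, and enters muscle fibres through the transporter SLC6A8.

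Between 125402932 and 157868359 counts on genes were available per library. The test was edgeR's quasi-likelihood test, fitted to all 6 libraries together, whose spread comes from the PN14 pair and a prior over all genes. Calls needed a Benjamini-Hochberg adjusted p under 0.05 and, on the log2 scale, a change of 1 or more. That fit scales libraries with TMM factors, between 0.714 (adult) and 1.45 (E18.5 and PN2). The 20 genes with the most counts took 16.0% of them at E18.5 and 36.9% in the adult. Fold changes towards later stages lie higher in the fit than in FPKM (fragments relative to gene length and library total, not scaled further between libraries): with library size alone the median over all genes tested, on the log2 scale, moved from -0.01 to -0.66 between PN2 and PN14, and from -0.05 to -1.08 between E18.5 and adult. The PN14 libraries differed by at least 2-fold in 476 genes, 2.82% of those tested. In whole muscle, fewer cells of a type and less RNA per cell cannot be told apart. The skeletal muscle fibre markers, of which the actin Acta1 had the highest FPKM, summed to between 21060 and 73650 FPKM, and 8 of 10 were above 1 FPKM in every library, the exceptions being the embryonic and perinatal myosins Myh3 and Myh8.

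Muscle creatine kinase, Ckm, which forms the cytosolic enzyme of muscle fibres, lies on the plus strand of chromosome 7 (mm9, 19996443 to 20006932, GENCODE M1) with 8 exons. Its level was 4494 FPKM at E18.5, 4189 at PN2, 18755 (replicate 1) and 13973 (replicate 2) at PN14, 21722 at PN28 and 19266 at 22 weeks. The 4 libraries from PN14 on were all above both earlier ones, by 3.91-fold for the PN14 mean of 16364 ± 3381 FPKM (SD, n = 2) over PN2 and 4.29-fold for adult over E18.5. Ckm held rank 9 of all genes by FPKM at E18.5 and rank 5 in the adult, and held 0.612% of the library's counts at E18.5 against 2.63% in the adult. On the TMM scale its log2 fold change was 2.65 (SE 1.53) between PN2 and PN14 and 3.13 (SE 1.67, 95% interval -0.97 to 7.22) between E18.5 and adult. Neither passed edgeR's quasi-likelihood test (adjusted p = 0.225 and 0.159), where so abundant a gene received a far larger standard error than the other members. DESeq2's Wald test (adjusted p = 5.56e-14 and 4.12e-15) and edgeR's exact test (1.68e-06 and 5.96e-08) called both differences, as did the quasi-likelihood test with library size alone (adjusted p = 1.94e-09 and 1.54e-09), so the call for Ckm depended on the test and the scaling and its direction did not. Of the 1415 exonic bases of Ckm, 451 are shared with A930016O22Rik on the opposite strand, which was listed at 0.78 to 7.17 FPKM.

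Sarcomeric mitochondrial creatine kinase, Ckmt2, the partner of Ckm at the mitochondria of striated muscle, lies on the minus strand of chromosome 13 (mm9, 91992992 to 92016490). Its level was 169 FPKM at E18.5, 96.7 at PN2, 1178 (replicate 1) and 874 (replicate 2) at PN14, 1065 at PN28 and 626 at 22 weeks. PN2 was the lowest library and both PN14 libraries were far above it, the PN14 mean of 1026 ± 215 FPKM (SD, n = 2) being 10.6-fold over PN2. Ckmt2 rose between PN2 and PN14 by a log2 fold change of 4.09 (SE 0.60, adjusted p = 0.00865, edgeR's quasi-likelihood test), the largest of the 10 members, and between E18.5 and adult by 2.91 (SE 0.60, adjusted p = 0.00939). The PN28 level was 1.70-fold that of the adult, and the log2 fold change of -0.63 from PN28 to adult (SE 0.56, adjusted p = 0.605) did not pass the test. The difference between E18.5 and PN2, -0.81 on the log2 scale (SE 0.56, adjusted p = 0.955), did not pass either.

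Brain-type creatine kinase, Ckb, the cytosolic isoform of brain and many other tissues, lies on the minus strand of chromosome 12 (mm9, 112907566 to 112910549). Its level was 39.7 FPKM at E18.5, 35.7 at PN2, 12.2 (replicate 1) and 20.1 (replicate 2) at PN14, 8.96 at PN28 and 5 at 22 weeks. Each later stage was below the one before it, with PN14 at 16.1 ± 5.56 FPKM (SD, n = 2), and E18.5 was 7.95-fold over the adult. Ckb fell by 1.96 on the log2 scale between E18.5 and adult (SE 0.28, adjusted p = 0.00295) and fell by 1.11 between PN2 and PN28 (SE 0.27, adjusted p = 0.0288), both by edgeR's quasi-likelihood test. Between PN2 and PN14 the log2 fold change was -0.51 (SE 0.23, adjusted p = 0.134), and it was called only with library size alone, where it was -1.15. Smooth muscle markers, led by Acta2, summed to 383 and 362 FPKM at E18.5 and PN2, 189 and 313 in replicates 1 and 2 of PN14, 128 at PN28 and 73.2 at 22 weeks, with 4 of 5 above 1 FPKM in every library. Of the PN14 libraries, replicate 2 was the higher one both for Ckb and for this sum, mostly through Acta2 (211 against 95.0 FPKM in replicate 1). Tagln was lower in replicate 2 (44.5 against 46.7 FPKM). Myh11, Cnn1 and Smtn were higher there by less than Acta2, with Smtn at 44.0 against 35.7 FPKM. The part of these cells in the level of Ckb was not tested.

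Ubiquitous mitochondrial creatine kinase, Ckmt1, was the scarcest member: 0.14 FPKM at E18.5 and PN2, 0.16 and 0.21 in replicates 1 and 2 of PN14, 0.11 at PN28 and 0.20 at 22 weeks, from 26 to 49 counts per library. It was not called in any of the 6 comparisons by edgeR's quasi-likelihood test, and its largest log2 fold change, 1.50 between E18.5 and adult (SE 0.57, adjusted p = 0.0668), was called by edgeR's exact test alone.

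Ratios within a library do not depend on the scaling between libraries, and FPKM is per length, so isoforms can be set side by side. Ckb made up 0.876% of the summed FPKM of Ckm and Ckb at E18.5, 0.846% at PN2, 0.0650% (replicate 1) and 0.143% (replicate 2) at PN14, 0.0412% at PN28 and 0.0259% at 22 weeks. The Ckb share was thus under 1% already before birth and 33.8-fold smaller in the adult. Ckmt1 made up at most 0.145% of the mitochondrial isoforms, at PN2. For every 100 FPKM of Ckm there were 3.77 FPKM of Ckmt2 at E18.5, 2.31 at PN2, 6.28 (replicate 1) and 6.25 (replicate 2) at PN14, 4.90 at PN28 and 3.25 at 22 weeks. The mitochondrial isoform was therefore highest relative to the cytosolic one at PN14, where the replicates differed by far less than PN14 did from any other stage, and the adult ratio lay between those of PN2 and E18.5.

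The sequences upstream of these 3 creatine kinases are shown because their levels separate: Ckm and Ckmt2 stood higher, and Ckb lower, from PN14 on. Each is the 250 bases before the RefSeq start (GRCm38.p6 table), a start that GENCODE M1 shares, from a window of 300 bases with 1 exact match in mm9, printed 5′ to 3′ on the gene's strand. Capitals mark the E-box CANNTG (the motif of MyoD-family factors), the CCAAT box on either strand and a TATA motif, in the form TATATA for Ckm and TATAAA for Ckb.
Ckm (mm9, chr7:19996193-19996442, plus strand): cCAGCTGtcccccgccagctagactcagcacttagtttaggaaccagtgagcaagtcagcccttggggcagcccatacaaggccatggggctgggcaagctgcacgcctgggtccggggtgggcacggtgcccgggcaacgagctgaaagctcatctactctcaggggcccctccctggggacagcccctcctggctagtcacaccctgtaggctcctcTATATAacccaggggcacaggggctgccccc
Ckb (mm9, chr12:112910550-112910799, minus strand): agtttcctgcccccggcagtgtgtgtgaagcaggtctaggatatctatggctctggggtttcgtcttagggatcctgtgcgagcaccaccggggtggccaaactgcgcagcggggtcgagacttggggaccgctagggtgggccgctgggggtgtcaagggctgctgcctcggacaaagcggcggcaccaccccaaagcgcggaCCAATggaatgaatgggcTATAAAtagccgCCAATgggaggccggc
Ckmt2 (mm9, chr13:92016491-92016740, minus strand): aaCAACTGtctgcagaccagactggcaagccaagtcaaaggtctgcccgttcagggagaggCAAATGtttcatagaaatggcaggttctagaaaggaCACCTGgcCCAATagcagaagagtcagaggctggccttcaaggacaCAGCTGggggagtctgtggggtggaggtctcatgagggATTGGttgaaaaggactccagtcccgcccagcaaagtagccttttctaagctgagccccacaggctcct

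Positions are counted from the start site, with -1 the last base printed. The Ckm window held an E-box at -249, of the form CAGCTG, and TATATA at -31. In the Ckb window there was no CANNTG, with CCAAT at -46 and -16 and TATAAA at -28, the last inside a match to the MEF2 consensus at -29. Ckmt2 had E-boxes at -248, -189, -153 (CACCTG) and -107 (CAGCTG). It also had CCAAT at -145 and -69, and neither TATA form. Searched on both strands in the 32851 RefSeq windows that run on to 50 bases after the start, CANNTG was present in 72.3%, CAGCTG in 16.3%, CACCTG in 20.2%, CCAAT in 37.4%, TATAAA in 13.6%, TATATA in 5.67% and the MEF2 consensus in 3.19%. Windows were matched for 8 of the 10 members, not for Ampd1 and Slc6a8. These matches describe letters and not bound sites.

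**Figure D1:**
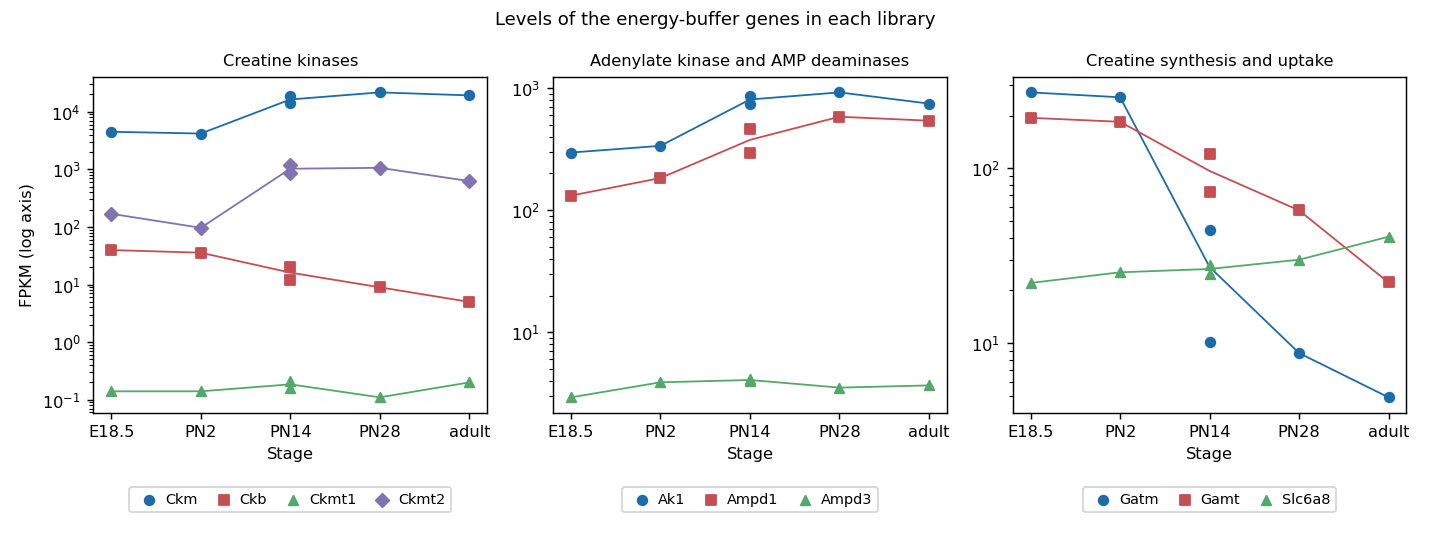
FPKM on a log axis against stage for the creatine kinases (left), adenylate kinase and AMP deaminases (middle) and creatine synthesis and uptake genes (right); points are the 6 libraries and lines join stage means, with 2 points at PN14. Ckm runs from 4494 FPKM at E18.5 to 19266 in the adult, while Gatm runs from 272 to 4.89, with PN14 replicates at 10.1 and 44.3.

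Adenylate kinase 1, Ak1, the cytosolic adenylate kinase of muscle, lies on chromosome 2 (mm9, 32477278 to 32502325, plus strand). Its level was 297 FPKM at E18.5, 337 at PN2, 868 (replicate 1) and 747 (replicate 2) at PN14, 923 at PN28 and 748 at 22 weeks. Both PN14 libraries, PN28 and the adult were above both earlier libraries, the adult 2.52-fold over E18.5. Ak1 rose between PN2 and PN14 by a log2 fold change of 1.94 (SE 0.54, adjusted p = 0.0419) and between E18.5 and adult by 2.36 (SE 0.59, adjusted p = 0.0185) in edgeR's quasi-likelihood test. It shares 124 of its 2793 exonic bases with Eng on the same strand, which was listed at 13.5 FPKM in the adult and at 35.6 at E18.5, the opposite order to Ak1. Of the summed FPKM of 7 adenylate kinases, Ak1 held 79.3% at E18.5, 82.2% at PN2, 95.0% (replicate 1) and 93.0% (replicate 2) at PN14, 94.8% at PN28 and 95.6% at 22 weeks.

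Ampd1, the muscle AMP deaminase, lies on the plus strand of chromosome 3 (mm9, 102877937 to 102903637). Its level was 132 FPKM at E18.5, 184 at PN2, 461 (replicate 1) and 293 (replicate 2) at PN14, 583 at PN28 and 541 at 22 weeks. The PN14 replicates, at 377 ± 119 FPKM (SD, n = 2), lay between PN2 and PN28, replicate 2 being the lower. Ampd1 rose between PN2 and PN28 by a log2 fold change of 2.56 (SE 0.63, adjusted p = 0.0287) and between E18.5 and adult by 3.07 (SE 0.64, adjusted p = 0.00983) in edgeR's quasi-likelihood test. From PN2 to PN14 its log2 fold change of 1.73 (SE 0.56, adjusted p = 0.0612) missed the threshold, and was 1.20 without PN14 replicate 1 and 2.12 without replicate 2. DESeq2's Wald test (adjusted p = 2.32e-05) and edgeR's exact test (adjusted p = 0.00234) called that interval.

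Ampd3, the AMP deaminase known from red blood cells, was far scarcer than Ampd1: 2.93 FPKM at E18.5, 3.89 at PN2, 4.15 (replicate 1) and 3.98 (replicate 2) at PN14, 3.52 at PN28 and 3.67 at 22 weeks. In FPKM the adult was 1.25-fold over E18.5, and the PN14 replicates were the highest of the 6 libraries. Ampd3 shares 174 and 195 of its 5605 exonic bases with B430319F04Rik and Gm15548 on the opposite strand, and whether counting used strand was not stated. On the TMM scale Ampd3 rose between E18.5 and adult by a log2 fold change of 1.36 (SE 0.25, adjusted p = 0.00626, edgeR's quasi-likelihood test), but with library size alone this was 0.34 (adjusted p = 0.536), so the call rested on the scaling. Between PN2 and PN14 its adjusted p was 0.0492 with a log2 fold change of 0.73 (SE 0.22), under the size required for a call. The erythroid markers, led by Hba-a1, summed to 8594 FPKM at E18.5 and 375 in the adult, with 4 of 8 above 1 FPKM in every library and Hbb-bh1 at most 0.01 FPKM. Between these stages the sum was 1503 at PN2, 2137 (replicate 1) and 1181 (replicate 2) at PN14 and 1214 at PN28. It was highest at E18.5, the library with the lowest FPKM of Ampd3, and next highest in PN14 replicate 1, the library with the highest. The part of erythroid cells in the level of Ampd3 was not tested. Ampd1 made up 90.8% of the summed FPKM of Ampd1, Ampd2 and Ampd3 at E18.5, 93.3% at PN2, 98.4% and 97.2% in replicates 1 and 2 of PN14, and 99.0% at both PN28 and 22 weeks. Ampd2, the broadly expressed form, named after its values were seen, went from 10.3 FPKM at E18.5 to 1.74 in the adult and fell by 1.54 on the log2 scale (SE 0.21, adjusted p = 0.00264).

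Gatm, which encodes the amidinotransferase of the first step of creatine synthesis, lies on the minus strand of chromosome 2 (mm9, 122420203 to 122437039). Its level was 272 FPKM at E18.5, 255 at PN2, 10.1 (replicate 1) and 44.3 (replicate 2) at PN14, 8.76 at PN28 and 4.89 at 22 weeks. Both early libraries were far above the 4 later ones, with E18.5 55.5-fold over the adult. Gatm fell by 2.64 on the log2 scale between PN2 and PN14 (SE 0.66, adjusted p = 0.0314) and fell by 4.77 between E18.5 and adult (SE 0.93, adjusted p = 0.00779) in edgeR's quasi-likelihood test. These were the largest falls among the members. The PN14 replicates did not match: replicate 2 was 3.67-fold over replicate 1 in TMM-scaled CPM, a wider gap than in any other member. The PN2 to PN14 log2 fold change was -1.99 without replicate 1 and -3.86 without replicate 2, and DESeq2's Wald test did not call it (adjusted p = 0.157). From PN14 to PN28 the log2 fold change was -1.33 (SE 0.73, adjusted p = 0.661), which was -1.98 without replicate 1 and -0.11 without replicate 2, so the size of the step on either side of PN14 differed with the PN14 library taken.

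Gamt, the methyltransferase of the second step, lies on the minus strand of chromosome 10 (mm9, 79720896 to 79723757). Its level was 194 FPKM at E18.5, 184 at PN2, 72.8 (replicate 1) and 120.1 (replicate 2) at PN14, 57.4 at PN28 and 22.2 at 22 weeks. Both PN14 libraries lay between PN2 and PN28, and E18.5 was 8.75-fold over the adult. Gamt fell by 2.10 on the log2 scale between E18.5 and adult (SE 0.30, adjusted p = 0.00291, edgeR's quasi-likelihood test). Between PN2 and PN14 its log2 fold change was -0.30 (SE 0.24, 95% interval -0.90 to 0.30, adjusted p = 0.375), set beside -2.64 for Gatm in the same libraries, and the difference between the genes was not tested. The interval from PN28 to adult held a log2 fold change of -1.23 (SE 0.29, adjusted p = 0.115), and DESeq2's Wald test (adjusted p = 0.0105) and edgeR's exact test (adjusted p = 0.0106) called it.

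Slc6a8, the creatine transporter of the cell membrane, lies on the plus strand of chromosome X (mm9, 70918489 to 70927841). Its level was 22.1 FPKM at E18.5, 25.4 at PN2, 28.1 (replicate 1) and 24.9 (replicate 2) at PN14, 30.0 at PN28 and 40.6 at 22 weeks. The adult library was the highest, 1.84-fold over E18.5, and the PN14 replicates lay on either side of PN2. On the TMM scale Slc6a8 rose between E18.5 and adult by a log2 fold change of 1.90 (SE 0.30, adjusted p = 0.0042) and between PN2 and PN28 by 1.13 (SE 0.30, adjusted p = 0.035) in edgeR's quasi-likelihood test. With library size alone these were 0.88 (adjusted p = 0.0293) and 0.24 (adjusted p = 0.597) and neither was called, so only the direction was common to both scalings.

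Synthesis and uptake genes thus changed places within the libraries. Gatm per FPKM of Gamt was 1.40 at E18.5, 1.38 at PN2, 0.139 (replicate 1) and 0.369 (replicate 2) at PN14, 0.153 at PN28 and 0.220 at 22 weeks. Slc6a8 per FPKM of Gamt, a ratio chosen after its values were seen, was 0.114, 0.138, 0.386 and 0.208, 0.522 and 1.83 in the same order. Per FPKM of Gatm, also chosen afterwards, Slc6a8 stood at 0.0813 at E18.5, 0.563 and 2.79 at PN14 and 8.30 in the adult. At E18.5 Gatm was the third highest member by FPKM, after Ckm and Ak1, and in the adult it was among the lowest, 4.89 FPKM next to 5 for Ckb, a difference that single libraries cannot resolve.

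**Figure D2:**
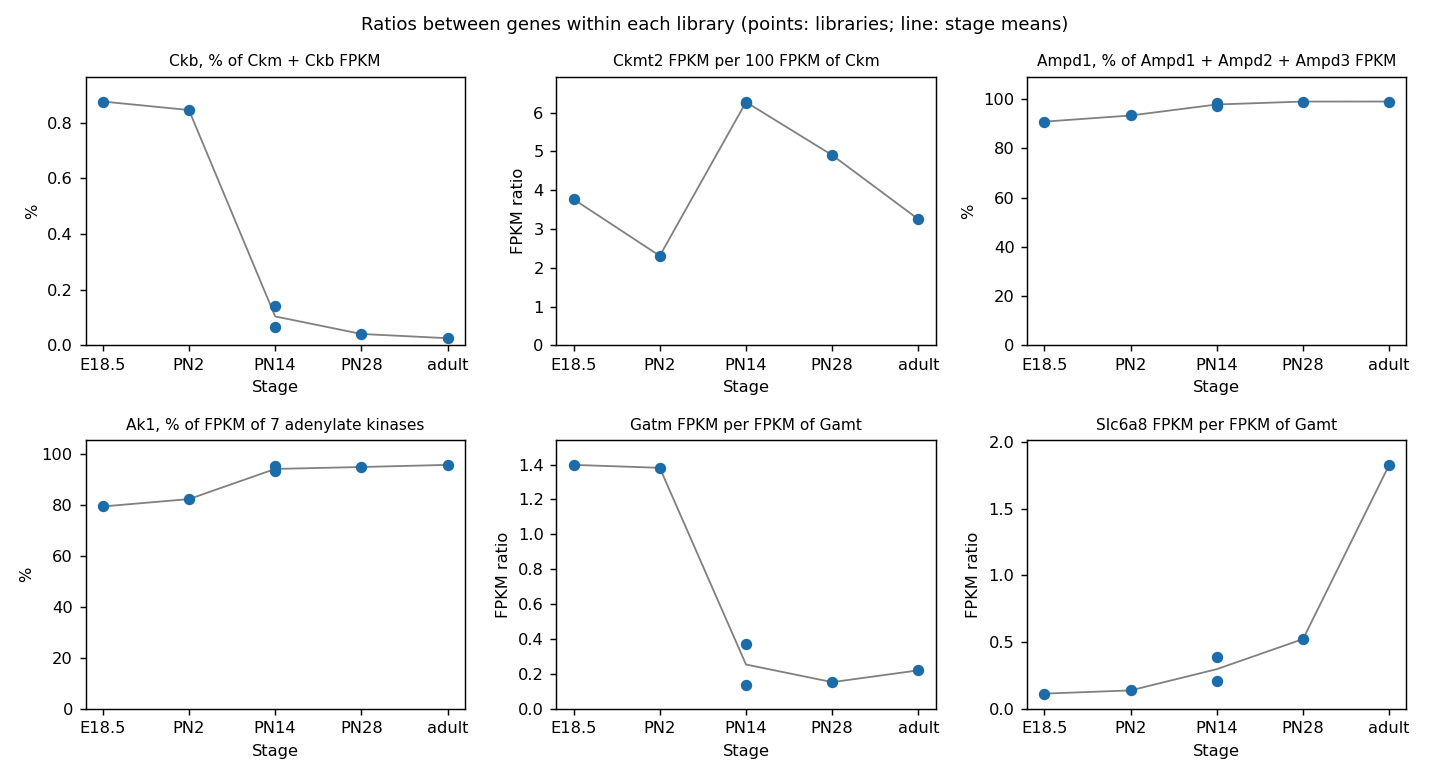
Within-library FPKM ratios against stage, points for the 6 libraries and lines through stage means: Ckb as % of Ckm plus Ckb, Ckmt2 per 100 Ckm, Ampd1 as % of 3 AMP deaminases, Ak1 as % of 7 adenylate kinases, Gatm per Gamt and Slc6a8 per Gamt. Ckmt2 per 100 Ckm peaks at PN14 (6.28 and 6.25), and Slc6a8 per Gamt goes from 0.114 at E18.5 to 1.83 in the adult.

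Several marker lists of other cells had lower sums at the later stages, where Gatm, Gamt and Ckb were lower too. Satellite cell and myoblast markers, led by Myog, summed to 323 and 247 FPKM at E18.5 and PN2, 73.8 and 119 at PN14, 55.8 at PN28 and 27.5 at 22 weeks, with 3 of 5 above 1 FPKM in every library. Most of the sum at E18.5 and PN2 was Myog (210 and 152 FPKM), which the paper uses as a marker of myofibres. Pax7 was at 4.74 and 4.53 FPKM in those libraries. Proliferation markers, led by Top2a, summed to 146 FPKM at E18.5, 95.4 at PN2, 11.9 and 30.1 at PN14, 12.7 at PN28 and 0.44 at 22 weeks, where all 5 were under 1 FPKM. Osteoclast and bone markers, led by Ctsk, summed to 125 and 118 FPKM in the early libraries and to between 9.3 and 20.1 later, with 2 of 6 above 1 FPKM in every library, and the bone gene Ibsp was listed at 0 in all 4 later libraries. PN14 replicate 2, the higher of the pair for Gatm, Gamt and Ckb, also had the higher sums for satellite cell, proliferation and Schwann cell markers (the last 1200 against 329 FPKM) and the lower sum for muscle fibre markers (55919 against 68731 FPKM). Within the fibre list, Myh8 (31.05 against 8.25 FPKM), Myh3 (26.2 against 10.9) and Myh1 (1377 against 1238) were higher in replicate 2. The other listed fibre markers were lower there. Adipocyte markers, led by Fabp4, summed to 495 and 640 FPKM in the pair and to between 370 and 576 elsewhere. In every library 2 of 5 were above 1 FPKM. Fabp4 alone made up most of each sum (479 and 625 FPKM in the pair). Cfd was also higher in replicate 2 (9.35 against 7.38 FPKM). Adipoq (2.82 against 4.03), Plin1 (0.94 against 1.34) and Retn (2.14 against 2.92) were lower there. Between E18.5 and PN2 Adipoq went from 1.06 to 22.0 FPKM and Cfd from 0.09 to 18.6. All 6 Schwann cell and nerve markers were above 1 FPKM in every library. The part of these cells in the members' levels was not tested.

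Over the 10 members, edgeR's quasi-likelihood test called 2 that rose (Ckmt2 and Ak1) and 1 that fell (Gatm) between PN2 and PN14, where 23.0% of all genes tested were called, and 6 had an unadjusted p under 0.05, as did 45.8% of all genes tested. Between PN2 and PN28, 4 rose (Ckmt2, Ak1, Ampd1 and Slc6a8) and 2 fell (Ckb and Gatm), beside 27.0% of all genes. Between E18.5 and adult, 5 rose (Ckmt2, Ak1, Ampd1, Ampd3 and Slc6a8) and 3 fell (Ckb, Gatm and Gamt), beside 44.9% of all genes. The median log2 fold change of the members was 0.91, 0.94 and 1.70 in these comparisons, against -0.01, -0.04 and -0.05 for all genes tested. The comparisons share libraries and so are not separate evidence. Before PN2 and after PN14 the fit called no member: 0 of 10 between E18.5 and PN2 (0.0296% of all genes), 0 between PN14 and PN28 (0.0178%) and 0 between PN28 and adult (0.521%). At an unadjusted p under 0.05 there were 0, 1 (Ckb) and 2 (Ckb and Gamt) members in these intervals, beside 6.64%, 8.41% and 18.3% of all genes tested, and the Wald test of DESeq2, like the exact test of edgeR, called 0, 0 and 1 (Gamt).

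**Figure D3:**
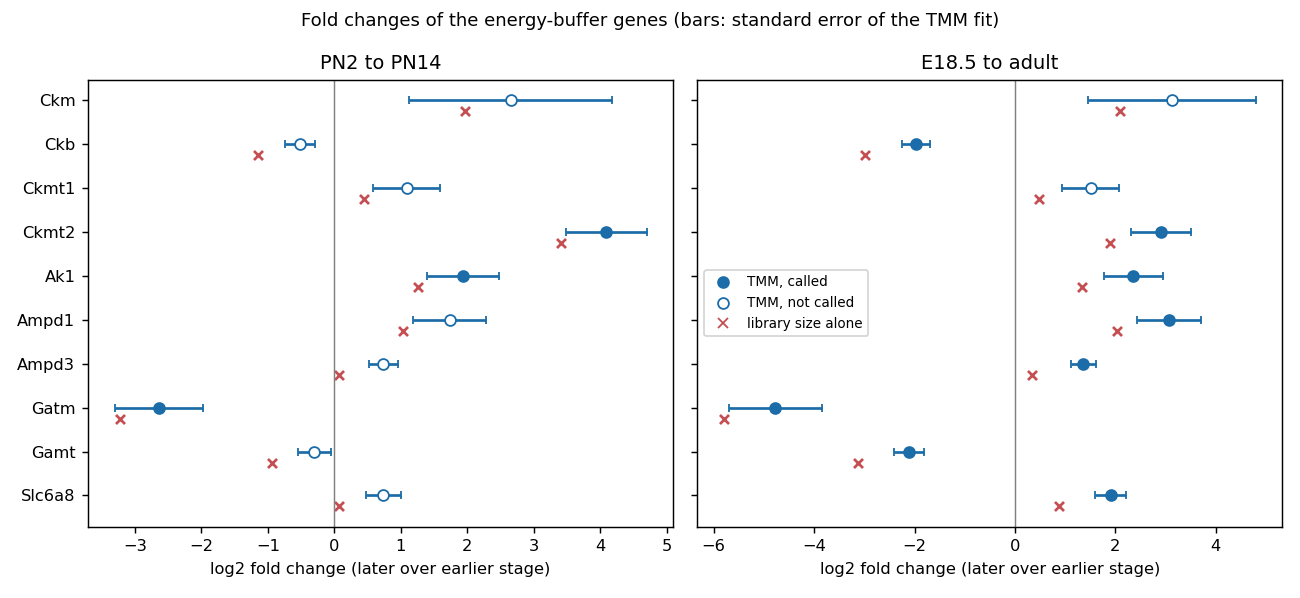
Log2 fold changes of the 10 members from PN2 to PN14 (left) and from E18.5 to adult (right), circles from the TMM-scaled fit with standard error bars (filled where called) and crosses with library size alone. Ckmt2 has the highest PN2 to PN14 value (4.09) and Gatm the lowest (-2.64), Ckm has the widest bars (SE 1.53 and 1.67), and each cross lies to the left of its circle.

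The other genes of adenine nucleotide handling were followed as 36 genes in 5 lists. Between PN2 and PN14, 9 of the 36 rose and 2 fell (30.6% called, beside 23.0% of all genes tested), 19 had an unadjusted p under 0.05 (52.8%, beside 45.8%), and the median log2 fold change was 0.40, against -0.01 for all genes. These shares lie near those of all genes. With library size alone 8 rose and 8 fell. In the purine nucleotide cycle and AMP metabolism list 5 of 13 rose and none fell in the TMM-scaled fit, where 11.8% of all genes tested rose: Xdh (xanthine dehydrogenase, log2 fold change 2.23, SE 0.49), Adk (adenosine kinase, 2.21, SE 0.21), Gda (guanine deaminase, 2.06, SE 0.23), Adssl1 (the muscle adenylosuccinate synthase, 1.69, SE 0.46) and Adsl, named after its value was seen (adenylosuccinate lyase, 1.30, SE 0.22). In FPKM the PN14 mean over PN2 was 2.87-fold for Xdh, 2.94-fold for Adk and 2.63-fold for Gda. It was 2.00-fold for Adssl1 and 1.56-fold for Adsl. Xdh and Gda were low in these libraries. Xdh was at 0.51 FPKM at PN2 and at 1.88 (replicate 1) and 1.05 (replicate 2) at PN14, so its replicates differed widely. Gda was at 0.86 FPKM at PN2 and at 2.20 (replicate 1) and 2.32 (replicate 2) at PN14. Adssl1 was the highest of that list by FPKM, at 68.7 at E18.5, 139 at PN2, 325 and 232 at PN14, 349 at PN28 and 465 at 22 weeks. With Ampd1 it acts in the purine nucleotide cycle, and for both genes the adult level was above every library before PN28.

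AMP-activated kinase, the sensor of AMP in the cell, had 3 of 7 subunit genes that rose between PN2 and PN14 in edgeR's quasi-likelihood test with TMM scaling and none that fell, beside the 11.8% of all genes tested that rose. Prkag3, the gamma subunit of fast muscle, stood at 14.1 FPKM at E18.5, 11.9 at PN2, 116.6 (replicate 1) and 72.3 (replicate 2) at PN14, 122 at PN28 and 152 at 22 weeks, with a PN2 to PN14 log2 fold change of 3.68 (SE 0.52, adjusted p = 0.00781). Prkab2 (log2 fold change 2.01, SE 0.44) and Prkaa2 (1.74, SE 0.36), the beta and alpha subunits most used in muscle, also rose. All 3 had higher FPKM in the adult than in any other library.

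Of the adenine nucleotide exchange list, only Vdac3, a channel of the outer mitochondrial membrane, was called between PN2 and PN14 (log2 fold change 1.19, SE 0.34, adjusted p = 0.043, edgeR's quasi-likelihood test). In FPKM the PN14 mean of Vdac3 was 1.43-fold over PN2. Vdac1, named after its values were seen, had a larger log2 fold change of 1.46 (SE 0.45) that missed the threshold in that test (adjusted p = 0.056). Slc25a4, the ADP/ATP carrier of muscle and heart and the highest of the list, was at 1276 FPKM at E18.5, 1779 at PN2, 3778 and 3853 at PN14, 3523 at PN28 and 3103 at 22 weeks. Its PN2 to PN14 log2 fold change of 1.76 (SE 0.68, adjusted p = 0.0966) was not called, and it rose between E18.5 and adult (2.31, SE 0.76, adjusted p = 0.0434). Its relative Slc25a5, named after its values were seen, went from 249 FPKM at E18.5 to 27.5 in the adult and fell by 2.15 on the log2 scale (SE 0.37, adjusted p = 0.00541).

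Among the other adenylate kinases 1 of 6 changed between PN2 and PN14: Ak5, a form best known from brain, fell by 1.78 on the log2 scale (SE 0.33, adjusted p = 0.0141) from 2.28 FPKM at PN2 to 0.32 and 0.54 at PN14. Of 5 nucleoside diphosphate kinases, Nme4, the mitochondrial form, fell by 2.12 on the log2 scale (SE 0.31, adjusted p = 0.00844), from 19.5 FPKM at PN2 to 2.02 and 3.78 at PN14. Nme2, the highest of them, stayed between 393 and 568 FPKM in the 6 libraries and was not called between PN2 and PN14 or between E18.5 and adult. Over all 36 genes, 11 rose and 4 fell between PN2 and PN28 (27.0% of all genes were called), and 14 rose and 9 fell between E18.5 and adult (44.9%). With library size alone the split was 8 and 9 between PN2 and PN28 and 11 and 17 between E18.5 and adult. In the intervals from E18.5 to PN2, PN14 to PN28 and PN28 to adult edgeR's quasi-likelihood test called 0 of the 36, with 5, 5 and 7 at an unadjusted p under 0.05 (13.9%, 13.9% and 19.4%, beside 6.64%, 8.41% and 18.3% of all genes). DESeq2's Wald test called 1, 2 and 1, and edgeR's exact test 1, 2 and 2.

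The genes with stage profiles most like those of 4 members were found among 9915 genes by the root mean square difference of centred log2 TMM-scaled CPM over the 5 stage means. Nearest to Ckm were Aimp2 (0.0945), Abcb1a (0.114) and Park7 (0.119). Ckb had Clic4 (0.0569), Trim47 (0.0615) and Fam212b (0.0636). The nearest to Ckmt2 were less near, Stard10 (0.187), Hist1h1e (0.218) and 6430571L13Rik (0.348), and those of Slc6a8 were Ypel3 (0.0319), Ficd (0.0338) and 2310044G17Rik (0.0405). Aimp2, for example, was at 70.6 FPKM at E18.5 and 267 in the adult, and Stard10 at 3.09 FPKM at PN2 and 33.4 and 20.9 in the PN14 replicates. With 5 stages, 4 of them single libraries, these likenesses are descriptions of the libraries.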

How the data were processed

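Expected counts and FPKM of 23367 gene entries were taken from the deposited table for all 6 libraries. The authors aligned paired-end reads to mm9 with TopHat2 2.0.5, and RSEM then assigned fragments to RefSeq gene models, so the expected counts are deposited unnormalized, and whether counting used strand is not given in the sources used here. The deposited FPKM values were made by the authors from the same alignments, relative to gene length and library total, with no further scaling between libraries. Genes that share over 100 exonic bases with a member are named beside the result, and Ckmt1 and Ckmt2 share 10 and 15 bases with Strc and 1700119I11Rik on the opposite strand.

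Counts were rounded and tested in R 4.3.3 with edgeR 4.0.16: TMM factors, filterByExpr by stage (16882 genes kept), the quasi-likelihood test, all 6 libraries and 5 stages in a single fit, and Benjamini-Hochberg adjustment over all genes tested. The PN14 pair gave 1 residual degree of freedom, with 4.86 prior degrees of freedom and a common biological coefficient of variation of 0.188, so other stages are assumed to vary as PN14 does. Standard errors were derived from the log2 fold change and the F statistic. DESeq2 1.42.0 (Wald test), edgeR's exact test, other scalings and other filters served as alternatives. The pipeline was tested on simulated counts with a common dispersion and as many rises as falls. That simulation held neither the shift of counts into few genes nor a spread particular to each gene, so it does not test calls under those conditions. A count of 3, the floor, is 0.0190 to 0.0239 CPM, and covers counting error only.

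The members and lists were chosen with earlier results of these data known. All members are named; of the other adenine nucleotide lists, up to 4 genes called from PN2 to PN14 or from PN28 to adult with the largest fold, plus the gene of highest FPKM; of marker lists, the gene of highest FPKM; and the 3 nearest profiles of 4 members, among genes with at least 10 CPM in a library (prior 0.1 CPM). Some genes that this rule selects are not reported here by name. Positions are of GENCODE M1 (mm9), and upstream sequences of RefSeq (GRCm38.p6 table) matched to mm9.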

Additional observations from a re-analysis of the deposited data

How the results depend on the processing

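Depth was ample for 9 members, and Ckmt1 (26 to 49 counts per library) is limited by counting. No paired analysis was possible because only PN14 carries replicate numbers, and without a PN14 library no test has residual degrees of freedom, so those values carry no p. The PN14 pair is the only measure of spread between animals.

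With library size alone 4 of the members' log2 fold changes changed sign, none of them called: Ckmt1 PN2 to PN28 (-0.26), Ampd1 PN28 to adult (-0.11), Ampd3 PN14 to PN28 (-0.21) and Ampd3 PN2 to PN28 (-0.14). Without PN14 replicate 2, Ckmt2 (0.26 to -0.05) and Ampd3 (0.01 to -0.14) changed sign from PN14 to PN28, neither called. The number of members called from PN2 to PN14 was 6 with library size alone and 5 by edgeR's exact test against 3. It was 1 from PN14 to PN28 with library size alone (Gatm), and 1 from PN28 to adult (Gamt) with library size alone, DESeq2's Wald test, edgeR's exact test or no filter on low counts, against 0 in each case. DESeq2's size factors within edgeR called the same members as TMM in all 6 comparisons, as did a filter of a mean of at least 1 CPM, which removed Ckmt1. The cause of the differences between tests was not tested.

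Of the 36 further genes, 1 was called from E18.5 to PN2 with library size alone, DESeq2's Wald test, edgeR's exact test or no filter; 2 from PN14 to PN28 with library size alone and by both of those tests; and from PN28 to adult 1 with library size alone, the Wald test or no filter and 2 by the exact test, against 0 in each. Over all genes tested, library size alone, the Wald test, the exact test and no filter gave 241, 165, 346 and 97 calls from E18.5 to PN2 (against 5), 262, 135, 241 and 56 from PN14 to PN28 (against 3), and 868, 808, 1146 and 835 from PN28 to adult (against 88, and 13 with a mean of at least 1 CPM). From PN2 to PN28 library size alone gave 7151 against 4566. The split of rises and falls moved with the scaling: 1988 rose and 1896 fell from PN2 to PN14 with TMM against 854 and 4971 with library size alone, 2415 and 2151 against 852 and 6299 from PN2 to PN28, 3606 and 3978 against 1347 and 7700 from E18.5 to adult, and 27 and 61 against 141 and 727 from PN28 to adult.

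Expected counts in place of FPKM, which leave out gene length, gave an Ampd1 share of 86.1% at E18.5 and 96.4% at PN14, an Ak1 share of 76.1% at E18.5, and 3.96, 6.60 and 3.42 Ckmt2 per 100 Ckm at E18.5, PN14 and adult. Gatm per Gamt was then 3.62, 0.658 and 0.571 at E18.5, PN14 and adult, Slc6a8 per Gamt 0.500, 1.31 and 8.05, and Slc6a8 per Gatm 14.1 in the adult; these last 2 ratios and their alternatives were added after seeing the data. Ckmt2 per 100 Ckm, Gatm per Gamt and Slc6a8 per Gamt kept the order of E18.5, PN14 and adult that they had in FPKM. For Gatm per Gamt, PN14 lies above the adult (0.220) through replicate 2 alone, since without it the FPKM ratio was 0.139.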
